A study of Mus musculus with 9 samples.

Results

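The 9 genes described here set how much glucose a liver makes and how much it burns. They are Pck1, G6pc, Fbp1 and Pcx, which encode enzymes of glucose production, the coactivator gene Ppargc1a, the regulator gene Gckr, the glycolysis genes Pklr and Pfkfb3, and the glucose transporter Slc2a2. Members were found by gene name in the table of raw read counts, and 9 of its 54532 genes belong to them. All 9 passed the filter on low counts. RNA was sequenced from the livers of 9 male wild-type C57BL/6 mice, 3 per group, which the submitters describe as independent biological replicates. The young mice were 8 weeks old, and the labels describe no injection for them. Mice of both old groups were 20 months of age and had received adeno-associated virus 9 at 14 months, by tail vein and into subcutaneous white fat, either AAV9-shRNA-Neg (here old control) or AAV9-shRNA-Fabp4 (here old Fabp4 shRNA). Age and injection therefore go together in every comparison with the young mice and cannot be told apart. All mice had normal chow, and the labels give neither the time of day nor the time since the last meal at death. The RNA extraction text names NRVMs although the tissue is labelled liver.

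A fasting liver makes glucose from lactate, amino acids and glycerol. Pyruvate carboxylase (Pcx) and the cytosolic phosphoenolpyruvate carboxykinase (Pck1) start this route, fructose bisphosphatase (Fbp1) carries it past the fructose step, and glucose-6-phosphatase (G6pc) frees the glucose, which can leave through the transporter encoded by Slc2a2. A fed liver runs the opposite way: the hold of Gckr on sugar use in the fasted state is relieved, and liver pyruvate kinase (Pklr) finishes glycolysis. Pfkfb3 is a maker of the sugar phosphate that drives glycolysis and blocks Fbp1, and Pfkfb1 is its liver relative. Glucagon and fasting induce Pck1, G6pc and Ppargc1a, insulin represses Pck1 and G6pc, and the liver clock adds a daily rhythm to several of these genes.

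The stretches before the gene starts of Pck1, G6pc and Slc2a2 are shown because Pck1 was the most abundant of the 9 and G6pc and Slc2a2 differed most between the numbered young and the old livers. They come from RefSeq on GRCm38.p6, are read 5′ to 3′ on the gene's strand, and end just before the annotated gene start. Capitals mark matches to the searched motifs.
Pck1, chr2:173152823-173153047, plus strand: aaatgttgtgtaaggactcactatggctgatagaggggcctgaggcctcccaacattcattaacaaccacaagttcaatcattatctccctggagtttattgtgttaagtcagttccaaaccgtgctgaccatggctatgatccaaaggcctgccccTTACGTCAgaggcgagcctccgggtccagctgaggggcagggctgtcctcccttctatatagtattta
G6pc, chr11:101367466-101367560, plus strand: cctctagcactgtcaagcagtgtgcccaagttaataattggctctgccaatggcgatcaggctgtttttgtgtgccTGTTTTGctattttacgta
Slc2a2, chr3:28697653-28697902, plus strand: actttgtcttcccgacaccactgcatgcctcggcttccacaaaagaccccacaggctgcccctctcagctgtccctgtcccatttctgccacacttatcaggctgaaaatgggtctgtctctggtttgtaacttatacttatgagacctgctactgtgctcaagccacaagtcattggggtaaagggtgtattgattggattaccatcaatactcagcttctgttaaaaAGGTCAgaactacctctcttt
The Pck1 capitals, TTACGTCA, are a variant of the cAMP response element, located 93 to 86 bases before the RefSeq start. Of 32851 RefSeq windows of 250 bases before a start, 0.447% held these letters on either strand. The full element TGACGTCA was in 1.55% of windows and in 0 of the 9 genes. The G6pc capitals, TGTTTTG, are the core of an insulin response element, found in 5.56% of windows. Among the members they also stood before the RefSeq start of Gckr, but past its annotated start. The Slc2a2 capitals, AGGTCA, are the core bound by ROR and REV-ERB clock factors, found in 14.0% of windows and among the members also before the RefSeq starts of G6pc and Pklr. The G6pc match lies past the annotated start, outside the stretch printed above. The E-box CACGTG, which CLOCK and BMAL1 bind, was in 6.02% of windows and stood before Pcx and before an inner RefSeq start of Pfkfb3, within that gene, but not before its annotated start. Neither the D-box TTATGTAA, in 0.819% of windows, nor the forkhead letters TGTTTAC, in 3.17%, were found before a member. Motifs were picked after expression values were seen, and a match is a description of letters only.

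On GRCm38, with the GENCODE annotation, Pck1 (ENSMUSG00000027513) lies on chromosome 2 at 173153048 to 173159273, G6pc (ENSMUSG00000078650) on chromosome 11 at 101367561 to 101377903 and Fbp1 (ENSMUSG00000069805) on chromosome 13 at 62864753 to 62888282. Gckr (ENSMUSG00000059434) lies on chromosome 5 at 31297443 to 31327314. No other annotated gene overlaps these 4. Pcx (ENSMUSG00000024892, chromosome 19, 4510472 to 4621752) overlaps Lrfn4 on the opposite strand, and Pklr (ENSMUSG00000041237, chromosome 3, 89136142 to 89146784) overlaps Hcn3 likewise. Slc2a2 (ENSMUSG00000027690, chromosome 3, 28697903 to 28731359) and Pfkfb3 (ENSMUSG00000026773, chromosome 2, 11471433 to 11554077) each overlap an antisense gene, and Ppargc1a (ENSMUSG00000029167, chromosome 5, 51454250 to 51567726) overlaps 4 short unclassified gene models. The strand setting of the counting is not given in the sources used here, so for these 5 genes reads of an overlapping gene cannot be told apart.

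Total counts per library were 14243344 to 17125440, and the detection floor of 3 counts equalled 0.175 to 0.211 CPM (counts scaled to library size; floors cover counting error only). Of 13 hepatocyte marker genes 12 were found by name, and together they took 102996 to 167119 CPM in each library, so the tissue carried liver RNA throughout. One young column carries a number that no label has, and is called the unnumbered young library. It stood apart from the other 8: its 15 skeletal muscle markers summed to 4599 CPM, against 6.98 to 113.5 CPM elsewhere, and its counts are not the reads behind the FPKM column of the same name. Whole reads could be recovered from that FPKM column, and results that rest on this library are given with its count column, with the recovered reads, and without it. Fabp4, the target of the hairpin, stood at 7.20, 13.6 and 10.8 CPM in old control and at 11.2, 3.80 and 7.57 CPM in old Fabp4 shRNA livers. These groups overlapped (log2 fold change -0.49 ± 1.16 SE, edgeR, adjusted p = 0.960), so the libraries are named by their labels.

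The feeding and clock state of each liver was read from genes outside the 9. A fasting index was the mean log2 CPM of 8 genes of fat burning and fasting (such as Pdk4 and Igfbp1) minus that of 10 genes of sugar use and fat synthesis (such as Srebf1 and Thrsp). It was 1.43 and 1.82 in young animals 1 and 5, and 4.09 in the unnumbered young library, where the recovered reads gave 1.27. Old control animals 1, 2 and 5 had 2.74, 4.21 and 3.45, and old Fabp4 shRNA animals 1, 3 and 6 had 2.65, 4.53 and 4.08. Both numbered young livers thus had lower values than any old liver, while the count column of the unnumbered library lay among the old ones.

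A clock index was the mean log2 CPM of 7 genes that peak in daytime or early evening (such as Dbp) minus that of 4 genes in the opposite phase (such as Arntl). Young animals 1 and 5 and the unnumbered library had 3.61, 3.42 and 2.08, the last becoming 2.70 from recovered reads. In old control animals 1, 2 and 5 it was -2.22, -2.56 and 0.87. Young and old control livers did not overlap on this index, so age group and clock state cannot be told apart in their comparison. Old Fabp4 shRNA animal 1 had 3.70, as high as the young livers, whereas animals 3 and 6 had -2.31 and 0.17.

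**Figure D1:**
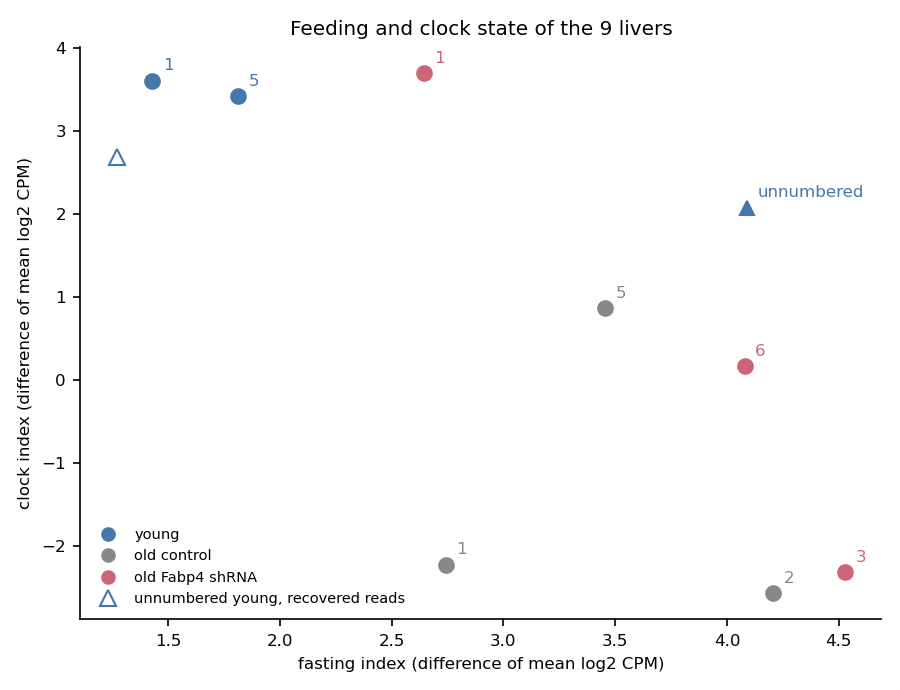
Clock index against fasting index of each liver, both differences of mean log2 CPM, with points numbered by animal and colored by group; the triangles are the unnumbered young library from its count column (filled) and its recovered reads (open). The numbered young livers sit at a fasting index of 1.43 and 1.82, left of every old liver, and the filled triangle sits at 4.09.

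Single genes show the same split between livers. Pdk4, a kinase that spares glucose in fasting, stood at 2.22 and 2.21 CPM in young animals 1 and 5, at 190.0 in the unnumbered library, at 45.9, 53.1 and 22.0 in old control animals 1, 2 and 5 and at 5.24, 233 and 64.3 in old Fabp4 shRNA animals 1, 3 and 6. Its recovered value in the unnumbered library was 3.88 CPM. Dbp, a clock output factor, was 100.2, 90.1 and 32.2 CPM in young animals 1 and 5 and the unnumbered library, 0.580, 0.588 and 16.4 CPM in old control and 53.4, 0.496 and 4.85 CPM in old Fabp4 shRNA livers. The old livers ranged from a clock state like that of the young to the opposite phase.

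Values of the 9 genes below are TMM-scaled CPM, in the order young animals 1 and 5 and the unnumbered library, old control animals 1, 2 and 5, and old Fabp4 shRNA animals 1, 3 and 6. Pck1, the first committed enzyme of glucose production from pyruvate, stood at 5762, 2423 and 5086 CPM in young, 5048, 5438 and 4609 in old control and 2896, 3937 and 4546 in old Fabp4 shRNA livers. Young animal 5 was the lowest of all. On this scale each Fabp4 shRNA liver was below each old control liver, but without TMM scaling Fabp4 shRNA animal 6, at 5086 CPM, lay above old control animals 2 and 5, at 4734 and 4583 CPM. Markers of kidney, another organ rich in Pck1, summed to at most 0.137 CPM in any library. G6pc stood at 95.4, 110.4 and 301 CPM in young, 541, 256 and 308 in old control and 279.6, 466 and 226 in old Fabp4 shRNA livers. Both numbered young livers were below all 6 old livers, and the unnumbered library lay among the old ones.

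Fbp1 stood at 510.5, 632 and 942 CPM in young, 374, 482 and 296 in old control and 561, 852 and 623 in old Fabp4 shRNA livers. With the count columns and TMM scaling every old control liver was below every other liver. Without TMM scaling old control animal 1, with 6447 of 15009727 reads, lay above young animal 1, with 6911 of 16414852. Pcx stood at 444, 376 and 368 CPM in young, 301, 352 and 246 in old control and 257, 600.4 and 294 in old Fabp4 shRNA livers. Old control lay below young without overlap in these columns, and Fabp4 shRNA animal 3 had the highest value of the 9.

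Ppargc1a, which encodes a transcriptional coactivator of gluconeogenic and mitochondrial genes, was low, at 15.6, 13.4 and 22.2 CPM in young, 8.18, 8.82 and 17.5 in old control and 10.4, 7.76 and 11.7 in old Fabp4 shRNA livers. On this scale all Fabp4 shRNA livers were below all young ones, and old control animal 5 lay among the young. Without TMM scaling Fabp4 shRNA animal 6, with 225 of 17125440 reads, lay above young animals 1 and 5. These had 211 of 16414852 and 176 of 14243344 reads. Gckr stood at 228, 178 and 109 CPM in young, 236, 149 and 196 in old control and 215, 142 and 124 in old Fabp4 shRNA livers, with all groups overlapping. Slc2a2 stood at 329, 299 and 88.4 CPM in young, 133, 187 and 181 in old control and 184, 129 and 99.5 in old Fabp4 shRNA livers. The numbered young livers had the highest values and the unnumbered library had the lowest.

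Pklr stood at 64.1, 15.3 and 21.3 CPM in young, 30.2, 16.1 and 21.7 in old control and 20.0, 31.9 and 20.0 in old Fabp4 shRNA livers. Young animal 1 was far above the rest, and the other 8 values overlapped across groups. Pfkfb3, a maker of fructose-2,6-bisphosphate found in many cell types, stood at 4.73, 4.12 and 13.7 CPM in young, 4.29, 4.78 and 4.10 in old control and 13.1, 4.02 and 8.35 in old Fabp4 shRNA livers. It was near 4 to 5 CPM in 6 livers and higher in the unnumbered library and in Fabp4 shRNA animals 1 and 6.

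**Figure D2:**
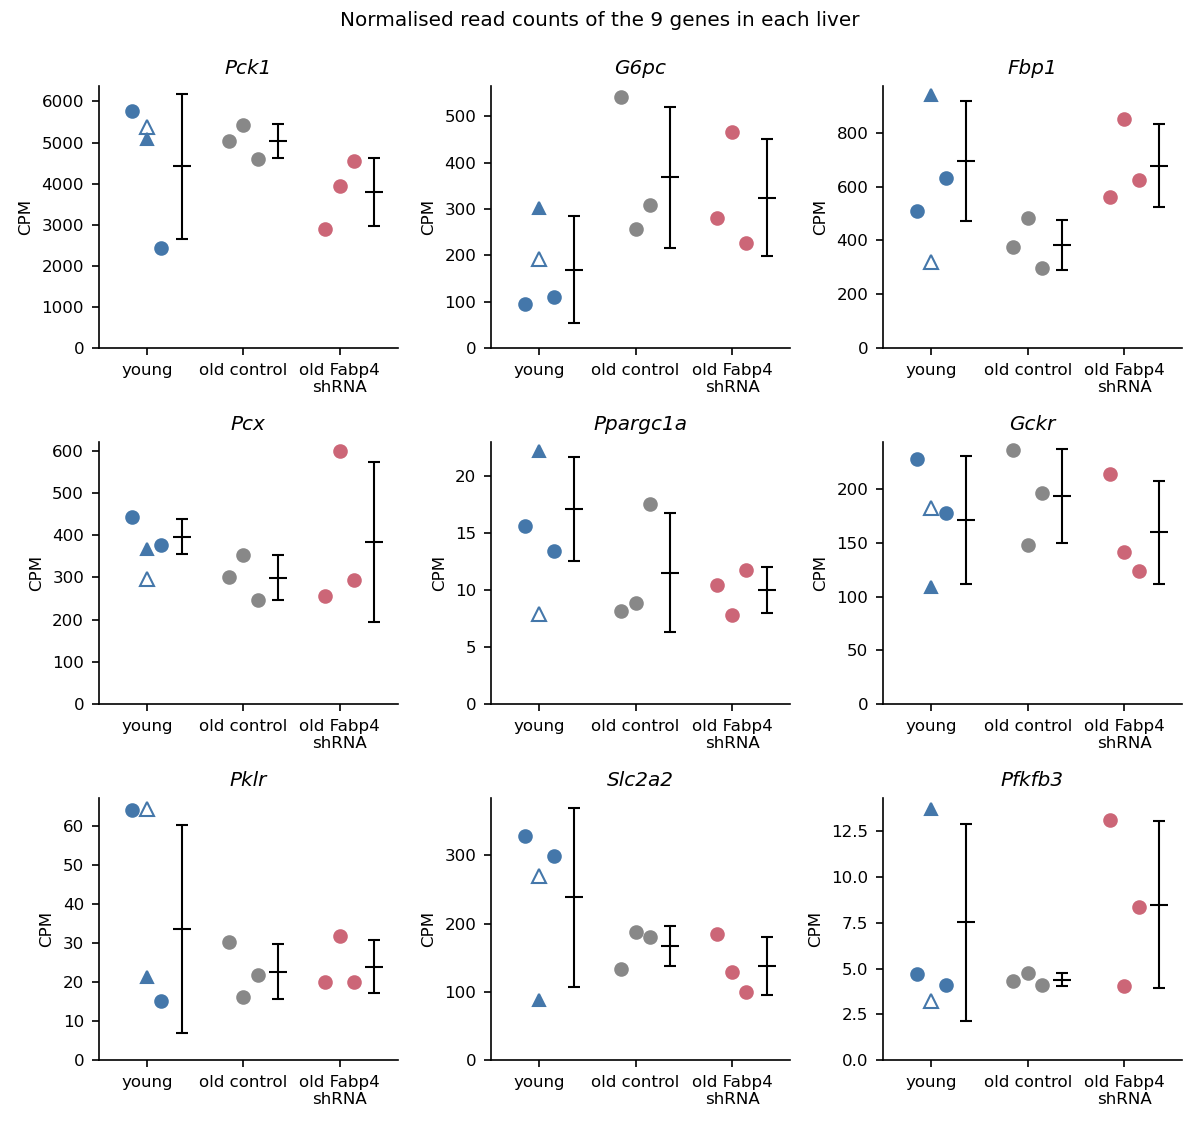
TMM-scaled CPM (linear axes from 0) of each gene in each liver, by group, with the group mean and SD of the count columns as bars; the filled triangle is the count column of the unnumbered young library and the open triangle its recovered reads, which are not in the mean. In G6pc and Slc2a2 the filled triangle lies at 301 and 88.4 CPM, among or below the old livers, and the open one at 192 and 269.7.

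With its recovered reads the unnumbered young library gave other values for most of these genes. G6pc was 192 instead of 301 CPM, Slc2a2 269.7 instead of 88.4, Fbp1 319.6 instead of 942, Ppargc1a 7.86 instead of 22.2 and Pfkfb3 3.20 instead of 13.7. Pklr was 64.3 CPM, at the level of young animal 1. Pck1 moved least, to 5369 CPM, and Pcx and Gckr came to 295 and 182 CPM. Old control then overlapped young in both Fbp1 and Pcx. Which of the 2 columns belongs to the labelled mouse was not tested.

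Comparing old control with young livers asks how age, together with the control injection, relates to these genes. The largest difference upward was that of G6pc, whose mean was 368 ± 152 CPM (SD) in old control and 169 ± 115 CPM in young livers. Fbp1 differed most downward, with 384 ± 93.5 against 695 ± 223 CPM. None of the 9 passed the test, edgeR's quasi-likelihood test with Benjamini-Hochberg adjustment over all 14025 tested genes at 0.05, which called 0.0357% of all genes. The log2 fold change was 1.12 ± 0.47 (SE) for G6pc, with an edgeR adjusted p of 0.447, and -0.86 ± 0.29 for Fbp1, with an adjusted p of 0.371.

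At an unadjusted p under 0.05 these were 2 of the 9, against 10.5% of all genes. With TMM scaling Fbp1 and Pcx were lower in old control with no overlap of the groups, 2 members beside 8.26% of all genes. With recovered reads both overlapped, and without TMM scaling Fbp1 did. Pcx had a log2 fold change of -0.41 ± 0.31. Other differences were -0.57 ± 0.32 for Ppargc1a, -0.57 ± 0.49 for Pklr, -0.52 ± 0.41 for Slc2a2 and -0.79 ± 0.50 for Pfkfb3. Pck1 and Gckr had 0.18 ± 0.33 and 0.17 ± 0.30. The median over the 9 was -0.52, and that over all tested genes was 0.01.

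Which gene stood out depended on the unnumbered young library. With recovered reads G6pc had a log2 fold change of 1.44 ± 0.37 (edgeR, adjusted p = 0.144), and without the library 1.81 ± 0.39 (adjusted p = 0.208). Slc2a2 moved to -0.87 ± 0.25 (edgeR, adjusted p = 0.167) and -0.94 ± 0.29 (adjusted p = 0.321). Every old control liver then had more G6pc and less Slc2a2 than every young liver, patterns that held with recovered reads for 10.8% and 11.4% of all genes. Fbp1 went the other way, to -0.37 ± 0.29 with recovered reads and -0.60 ± 0.29 without the library, and Pfkfb3 to 0.09 and -0.04. Pklr came to -1.11 ± 0.48 with recovered reads, and to 0.30 when young animal 1 was left out instead.

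Adding the state of the liver to the model moved these differences again. With the clock index as a covariate the log2 fold change of G6pc was 0.49 (edgeR, adjusted p = 0.741) and that of Slc2a2 0.07 (adjusted p = 0.971). With the fasting index as a covariate G6pc had 1.01 (edgeR, adjusted p = 0.329) and Slc2a2 0.19 (adjusted p = 0.871). Fbp1 kept its sign in both fits, at -1.46 with the clock index (edgeR, adjusted p = 0.0974) and -1.12 with the fasting index (adjusted p = 0.0620). These fits use the count column of the unnumbered library. With recovered reads, an alternative chosen after seeing the data, the clock index left G6pc at 0.88 (edgeR, adjusted p = 0.426), Slc2a2 at -0.50 (adjusted p = 0.533) and Fbp1 at -0.87 (adjusted p = 0.351). The fasting index left them at 1.67 (edgeR, adjusted p = 0.293), -0.67 (adjusted p = 0.557) and -1.04 (adjusted p = 0.351). The sign that Slc2a2 took in the count-column fits was thus not that of the fits on recovered reads.

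**Figure D3:**
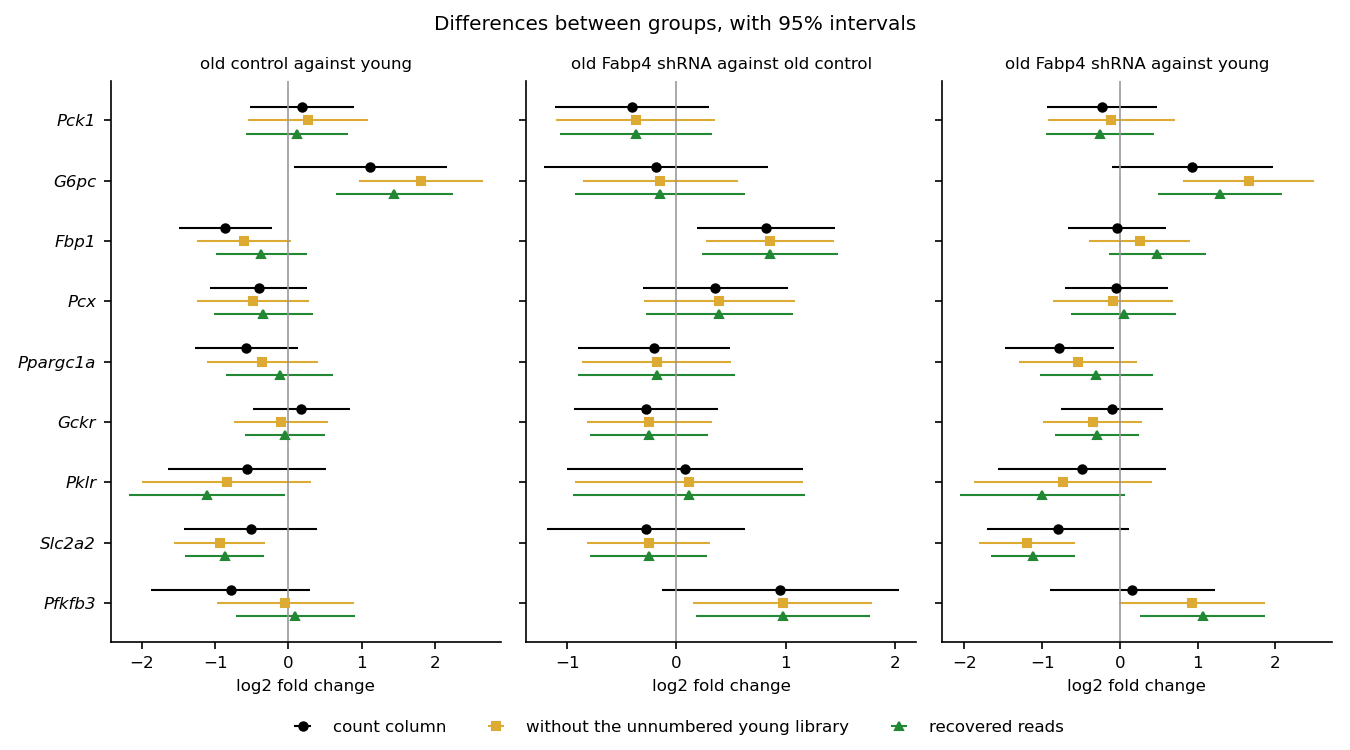
Log2 fold change of each gene in the 3 comparisons, with 95% intervals from the edgeR fit; circles use the count column of the unnumbered young library, squares leave it out and triangles use its recovered reads. For old control against young, G6pc lies at 1.12, 1.81 and 1.44 and Slc2a2 at -0.52, -0.94 and -0.87.

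Old Fabp4 shRNA against old control is the comparison of the hairpin among injected mice of one age, and it shares the old control livers with the comparison above. Fbp1 was higher in every Fabp4 shRNA liver, with 679 ± 153 CPM against 384 ± 93.5 CPM (SD), and Pck1 averaged 3793 ± 834 against 5032 ± 414 CPM. Pck1 was lower in every Fabp4 shRNA liver with the count columns and TMM scaling. Scaled together with the recovered reads, animal 6 had 4567 CPM and old control animal 5 had 4563 CPM, and the groups overlapped without TMM scaling as well. Neither passed the adjusted test, which called 0% of all genes (0 genes in edgeR and 7 in DESeq2, while 946 of the 14025 tested genes had an unadjusted edgeR p under 0.05). The log2 fold change of Fbp1 was 0.82 ± 0.29 (edgeR, adjusted p = 0.728) and that of Pck1 was -0.41 ± 0.33 (adjusted p = 0.859). Groups without overlap made up 6.02% of all genes upward and 5.67% downward.

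Fbp1 was the 1 member at an unadjusted p under 0.05, against 6.75% of all genes. Pfkfb3 averaged 8.49 ± 4.55 CPM against 4.39 ± 0.35 CPM, and its log2 fold change of 0.95 ± 0.50 came to 0.50 without Fabp4 shRNA animal 1. That animal had the young-like clock index of 3.70. Pcx had 0.36 ± 0.31, and -0.12 when Fabp4 shRNA animal 3 was left out, the liver with the highest fasting index. The remaining members had -0.19 ± 0.47 for G6pc, -0.21 ± 0.32 for Ppargc1a, -0.28 ± 0.30 for Gckr, 0.08 ± 0.48 for Pklr and -0.28 ± 0.41 for Slc2a2. Fbp1 stayed between 0.63 and 1.08 under all alternatives run, with adjusted p from 0.0950 to 0.997, and its lowest value came without Fabp4 shRNA animal 3. Muscle markers in that animal, at 113.5 CPM, were the highest outside the unnumbered library, and their part in its Fbp1 and Pcx values was not tested.

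Old Fabp4 shRNA livers were also compared with the young ones, which they share with the first comparison. Ppargc1a was lower in each of them with TMM scaling, at 9.98 ± 2.03 against 17.1 ± 4.55 CPM (SD). Its log2 fold change was -0.78 ± 0.32 (edgeR, adjusted p = 0.521). It was the 1 member at an unadjusted p under 0.05, against 8.93% of all genes, and the 1 member lower without overlap, against 6.67%. Without TMM scaling its groups overlapped. The adjusted test called 0.057% of all genes and 0 of the 9. With recovered reads Ppargc1a had -0.30 ± 0.34 and its groups overlapped.

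G6pc and Slc2a2 had the largest differences in size, 0.93 ± 0.47 and -0.80 ± 0.41. With recovered reads they were 1.29 ± 0.37 (edgeR, adjusted p = 0.115) and -1.12 ± 0.25 (adjusted p = 0.0645), and without the unnumbered library 1.66 ± 0.39 and -1.19 ± 0.29. G6pc was then higher, and Slc2a2 lower, in every Fabp4 shRNA liver than in every young one, as were 11.6% and 10.4% of all genes. Pfkfb3 went from 0.16 ± 0.49 to 1.07 ± 0.37 with recovered reads (edgeR, adjusted p = 0.175). Fbp1 and Pcx had -0.04 ± 0.29 and -0.05 ± 0.31, and with recovered reads 0.48 ± 0.29 and 0.05 ± 0.31. Values for Pck1, Gckr and Pklr were -0.23 ± 0.33, -0.10 ± 0.30 and -0.49 ± 0.48.

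To read the genes against the state of each liver, a slope per unit of each index was fitted with 1 mean per group, so that it rests on differences between livers of the same group. Index and gene come from the same libraries. The 2 indices also ran against each other in some groups. In old Fabp4 shRNA animals 1, 6 and 3 the clock index was 3.70, 0.17 and -2.31 and the fasting index 2.65, 4.08 and 4.53. Young livers ran the same way with the count column, but old control livers did not. A slope on 1 index can therefore not be fully told apart from one on the other. With both in the model, 37 clock and 4 fasting slopes were called over all genes. Gckr, Slc2a2 and Fbp1 had the steepest slopes by p on the fasting index, and Pcx and Fbp1 on the clock index. None of the 9 slopes on either index passed the adjusted edgeR test, which called 1.69% of all genes on the clock index and 0.963% on the fasting index. At an unadjusted p under 0.05 there were 2 members on the clock index, against 19.9% of all genes, and 3 on the fasting index, against 17.9%.

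Gckr was lower by 0.38 ± 0.09 log2 units per unit of the fasting index (slope -0.38, edgeR, adjusted p = 0.0647). In each old group its lowest liver had a fasting index above 4. The lowest young liver did so only with the count column: with recovered reads young animal 5 was the lowest. DESeq2 called this slope (adjusted p = 0.00295), and edgeR did so without the filter on low counts (adjusted p = 0.0340). These 2 settings called 675 and 1244 fasting slopes over all genes, against 135 in the main fit. The slope kept its size with recovered reads (-0.38, edgeR, adjusted p = 0.236) and without the unnumbered library (-0.39, adjusted p = 0.241).

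Slc2a2 had a fasting slope of -0.46 ± 0.15 (edgeR, adjusted p = 0.155). DESeq2 called it (adjusted p = 0.0449), as did edgeR without the filter (adjusted p = 0.0130) and without old control animal 1 (adjusted p = 0.0428). These settings called 675, 1244 and 287 fasting slopes over all genes. The Slc2a2 slope rested on the unnumbered library: without that library it was -0.11, and with recovered reads -0.10. Among all genes, too, 135 fasting slopes were called, and 1 without that library. Fbp1 had a fasting slope of 0.29 ± 0.10 (edgeR, adjusted p = 0.173), 0.30 without the unnumbered library and 0.34 with recovered reads. G6pc had 0.34 ± 0.18, which turned to -0.05 without that library and -0.12 with recovered reads.

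On the clock index Pcx had a slope of -0.16 ± 0.05 (edgeR, adjusted p = 0.113) and Fbp1 one of -0.14 ± 0.05 (edgeR, adjusted p = 0.178). DESeq2 called the Pcx slope (adjusted p = 0.0388), among 923 clock slopes over all genes, against 237 in the main fit. Pcx and Fbp1 were thus higher in livers of their group in which Dbp and its partners were low. In old control livers Fbp1 was 482, 374 and 296 CPM in order of a clock index of -2.56, -2.22 and 0.87. Old Fabp4 shRNA livers had 852, 623 and 561 CPM at -2.31, 0.17 and 3.70. Pcx ran 352, 301 and 246 CPM and 600.4, 294 and 257 CPM over the same livers. In young livers, with clock indices of 2.08 to 3.61, Pcx did not follow this order, and Fbp1 did with the count column but not with recovered reads, where the liver with the lowest clock index (2.70) had the lowest Fbp1 value (319.6 CPM). With recovered reads the Pcx slope was -0.17 and the Fbp1 slope -0.10, and without the unnumbered library they were -0.18 and -0.12.

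**Figure D4:**
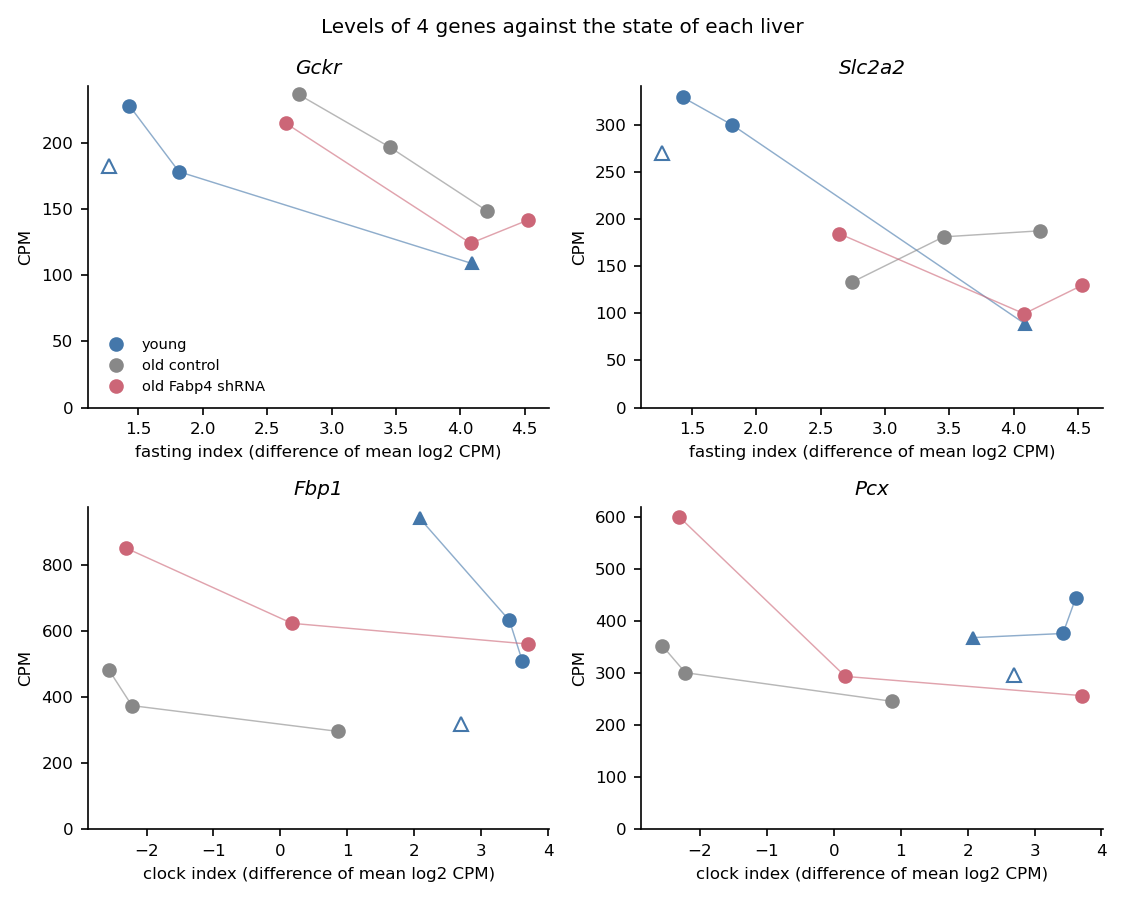
TMM-scaled CPM (linear axes from 0) of Gckr and Slc2a2 against the fasting index and of Fbp1 and Pcx against the clock index, with livers of a group joined by lines in order of the index; triangles are the unnumbered young library from its count column (filled) and its recovered reads (open). In both old groups the Fbp1 value is lower at a higher clock index, for example 482 CPM at the lowest and 296 CPM at the highest index among old control livers.

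The other genes of glucose handling were taken from lists by role. Of the other gluconeogenesis genes, 21 of 21 were tested, and 0 were called in any comparison. For old control against young, 6 had a negative and 0 a positive difference with an unadjusted p under 0.05, where 10.5% of all tested genes did in either direction (901 upward and 571 downward), and the median log2 fold change was -0.38 against 0.01 over all genes. Among them were Sds, which turns serine into pyruvate (-1.46 ± 0.43), Slc37a4, which carries glucose-6-phosphate to G6pc (-0.92 ± 0.29), and Slc25a11, a mitochondrial carrier (-0.74 ± 0.18). Sds is also 1 of the 8 periportal hepatocyte markers, whose median in this comparison was -0.75, and the part of liver zonation in its value was not tested. Slc37a4 had a negative difference where its partner G6pc had a positive one. In old Fabp4 shRNA against old control 0 of the 21 reached an unadjusted p of 0.05, and the median was 0.00.

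Of 34 other glycolysis genes 32 were tested. For old control against young, 7 reached an unadjusted p under 0.05, 3 of them upward and 4 downward, beside the 10.5% of all genes, and the median was -0.17. Pdk2, a kinase that switches off pyruvate dehydrogenase, had -0.63 ± 0.21. Pfkm, the muscle phosphofructokinase, had -2.54 ± 0.86, or -0.73 when the unnumbered library was left out. Between Fabp4 shRNA and old control 4 reached it, among them Tpi1 (0.60 ± 0.24) and Pfkfb1, the liver relative of Pfkfb3 (-0.82 ± 0.32). Pfkfb1 and Pfkfb3 thus had differences of opposite sign.

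Glycogen genes (18 of 19 tested) included 4 with an unadjusted p under 0.05 for old control against young, all downward. Among them was Ugp2, which makes the sugar donor for glycogen (-0.73 ± 0.27). Gyg (-1.33) and Gys1 (-2.24) were also among them and depended on the unnumbered library. Without it they had -0.58 and -0.52, and with recovered reads -0.50 and -0.40. Of the other hexose and monocarboxylate transporters 8 of 11 were tested, and 3 reached it, all downward: Slc2a9 (-0.65 ± 0.24), Slc2a8 (-0.73 ± 0.28) and Slc2a1 (-0.62 ± 0.27). Of 45 hormone, clock and transcription genes of glucose control 44 were tested, and 11 reached an unadjusted p under 0.05, 5 upward and 6 downward. The smallest p-values belonged to Cry2, a clock repressor of glucagon signalling (-1.16 ± 0.29), Klf10, a clock-driven zinc finger factor (1.27 ± 0.32), and Trib3, an inhibitor of insulin signalling (-1.26 ± 0.34). All these counts stand beside the 10.5% of all genes, and they are descriptions. None of these genes passed the adjusted edgeR test, with adjusted p from 0.215 to 0.464 for the named genes of this comparison.

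Per gene length, in the authors' FPKM over the 8 matched libraries, the 9 genes spanned a wide range. Pck1 was the most abundant, with a median of 1293 FPKM (range 687 to 1635), followed by Fbp1 at 302 (167 to 485), G6pc at 106 (38.4 to 210.2) and Pcx at 67.7 (50.9 to 125). Gckr had a median of 41.7, Slc2a2 30.2, Pklr 6.24, Ppargc1a 1.62 and Pfkfb3 0.571 FPKM. Neighbours in this order had ranges that overlapped, except Pck1 with Fbp1 and Pklr with Ppargc1a. G6pc varied most among livers, 5.47-fold between lowest and highest, and Gckr least, 1.83-fold.

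As a description over the 9 libraries, which share depth and state, the members did not move as 1 group. The count column of the unnumbered young library was used, which had the lowest Gckr and Slc2a2 and the highest Fbp1 value. No correlation was computed with its recovered reads. The highest Pearson correlations of log2 CPM among the members were 0.658 for Gckr with Slc2a2 and 0.617 for Fbp1 with Pcx. The lowest were -0.723 for G6pc with Slc2a2 and -0.697 for Fbp1 with Gckr. Among all tested genes the pattern most like that of G6pc was Sugp2 (r = 0.967), for Fbp1 Atp5a1 (0.977), for Pcx Ipmk (0.977), for Pck1 Cfl1 (0.960) and for Slc2a2 Isoc2b (0.962). For Gckr it was Gm10447 (0.972), for Ppargc1a Itih5 (0.958), for Pklr Prr12 (0.933) and for Pfkfb3 Narfl (0.965).

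Markers of other cell types differed between livers as well. In bulk tissue fewer cells of a type and less RNA per cell cannot be told apart. Endothelial markers (9 genes) summed to 87.4 to 99.5 CPM in young, 121 to 295 in old control and 144 to 267 in old Fabp4 shRNA livers. Macrophage markers (8 genes) reached 671 CPM in old control animal 1, against 110.4 to 228 CPM in the others. Fat cell markers (7 genes) summed to 7.13 to 92.9 CPM, with Plin1 and Lep at 0 in 8 of 9 libraries. Red blood cell markers (8 genes) summed to 524 to 973 CPM in young, 227 to 301 in old control and 198 to 425 in old Fabp4 shRNA livers, so that young livers lay above all old ones. Neutrophil markers summed to 9.87 to 26.7, 18.2 to 69.2 and 6.02 to 17.1 CPM in the same order, and all 6 that were tested had a negative difference between Fabp4 shRNA and old control. Periportal markers include Pck1 and Sds. For old control against young 7 of 8 had a negative difference (median -0.75), and Pck1 itself was the exception, at 0.18. For Fabp4 shRNA against young 8 of 8 were negative (median -1.11). Of the 8 pericentral markers 6 were negative in the first of these comparisons (median -0.17) and 3 in the second (median 0.13). Of the 12 hepatocyte markers tested 9 had a negative difference for old control against young and 11 for Fabp4 shRNA against young. The part of these cells and zones, and of muscle in the unnumbered young library, in the values of the 9 genes was not tested.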

How the data were processed

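Liver RNA was sequenced from 3 young, 3 old control and 3 old Fabp4 shRNA mice. Per the submitters' processing notes, HISAT2 and the build GRCm38.p6 were used; neither the counting program nor its strand setting is given in the sources used here. The authors deposited whole read counts per gene, with no scaling, and FPKM, which scale those counts to gene length and library size, for the same 9 columns. On 10483 genes with at least 20 counts, the ratio of FPKM to count was constant in 8 columns for 100% of genes (relative tolerance 0.001) and for 0.229% in the unnumbered young column. Its FPKM values were scaled back to reads, 11805823 in all, and 260 genes could not be recovered. Of 17635 values tested, which left out the highest ones, 100% were whole within 0.05 reads. Columns with no sample or group numbered 0.

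Tests on the counts used R 4.3.3 and edgeR 4.0.16: filterByExpr by group (14025 genes), TMM factors (0.825 to 1.15), a robust quasi-likelihood fit of 1 mean per group to all 9 libraries (6 residual degrees of freedom, biological coefficient of variation 0.320), two-sided tests and Benjamini-Hochberg adjustment over all tested genes, called under 0.05. Slopes on the indices (log2 CPM, prior count 2) used 1 mean per group. Intervals are 95% intervals of the fit. The feeding side of the fasting index includes Pnpla3, which was near 0 in every library. Alternatives were other scalings and filters, DESeq2 1.42.0, limma 3.58.1 (voom, and log2 FPKM with a pseudocount of 1 or 0.1), fits to 6 libraries, the animal number as a block, each index as a covariate, recovered reads, and leaving out each library. Fits combining recovered reads with a covariate were chosen after seeing the data. The members, lists and tests were chosen with earlier results of these data known. Named genes are the 9 members, Fabp4, index genes, the 3 genes of each glucose list with the smallest p per comparison, and the genes most correlated with each member. Gene positions came from GENCODE mouse release 21 (54409 of 54532 identifiers found), promoter windows from RefSeq (12 windows, all 9 members). The scripts were tested on simulated counts with known changes. Results for some genes of the lists are not reported here.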

Additional observations from a re-analysis of the deposited data

How the results depend on the processing

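Under the alternatives run, none of the 9 members was called in the 3 comparisons, with 1 exception. That was G6pc in old control against young with the animal number as a replicate block (log2 fold change 1.99). In this fit a library whose number no other library shares adds nothing to the comparisons. Old control against young then rests on animals 1 and 5 of both groups, without the unnumbered young library. The Fabp4 shRNA group rests on its animal 1 alone. The deviations of same-numbered livers had correlations of 0.112, 0.088, 0.030 and -0.046 for the 4 same-numbered pairs. Differently numbered pairs lay both above and below these values. So few pairs cannot show whether same-numbered livers share more than a number, and this was not tested further. Of 225 values per comparison 207, 214 and 199 kept direction and call for old control against young, Fabp4 shRNA against old control and Fabp4 shRNA against young. Signs turned in 17, 11 and 26. The causes were not tested.

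Counts of called genes, in the order old control against young, Fabp4 shRNA against old control and Fabp4 shRNA against young, were 5, 0 and 8, and 168, 7 and 124 with DESeq2, 137, 8 and 94 with no filter, 158, 73 and 23 with the replicate block, 33, 7 and 5 with the clock index as a covariate, 94, 0 and 24 with the fasting index, 7, 0 and 57 with recovered reads, 51, 87 and 47 with these and the clock index, and 46, 0 and 2 with these and the fasting index. Fits to 6 libraries gave 15, 0 and 0, limma-voom 3, 0 and 0, log2(FPKM + 1) 4, 0 and 5 and log2(FPKM + 0.1) 12, 0 and 8. Leaving out 1 library gave 1 to 10, 0 to 1 and 0 to 37. For slopes on the clock and the fasting index the counts were 237 and 135, 923 and 675 with DESeq2 (1 and 2 members), 1346 and 1244 with no filter (0 and 2 members), 106 and 19 with no scaling, 37 and 4 with both indices in the model, 432 and 1 with recovered reads, and 2 to 565 and 1 to 287 with 1 library left out (0 to 1 members on the fasting index).

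For old control against young, signs turned with recovered reads for Gckr (-0.048) and Pfkfb3 (0.093), on log2(FPKM + 1) (-0.065 and 0.036) and on log2(FPKM + 0.1) (-0.066 and 0.092), with the clock index for Pck1 (-0.16) and Slc2a2 (0.069), with the fasting index for Slc2a2 (0.19), with recovered reads and the clock index for Pck1 (-0.24), Ppargc1a (0.54) and Pfkfb3 (1.01), and with recovered reads and the fasting index for Pck1 (-0.12), Pfkfb3 (0.91) and Slc2a8 (0.033). Leaving out 1 library gave -0.11 to 0.41 for Pck1, -0.10 to 0.43 for Gckr and -0.92 to 0.30 for Pklr.

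For Fabp4 shRNA against old control, the replicate block turned Pcx (-0.22), Pklr (-1.03), Slc2a2 (0.32), Ppp1ca (-0.17) and Fabp4 (0.42). For the Fabp4 shRNA group these values rest on animal 1 alone and do not describe the whole group. The clock index turned G6pc (0.077, or 0.048 with recovered reads). Leaving out 1 library gave -0.54 to 0.20 for G6pc, -0.18 to 0.34 for Pklr, -0.40 to 0.23 for Ppargc1a and -0.12 to 0.58 for Pcx.

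With no scaling the median of all genes shifted by 0.15, 0.14 and 0.29 (log2) in the 3 comparisons. For Fabp4 shRNA against young this turned the signs of Pck1 (0.073), Fbp1 (0.22), Pcx (0.24) and Gckr (0.22), all below that shift. There signs also turned with recovered reads for Fbp1 (0.48) and Pcx (0.049), for Fbp1 on both FPKM scales (0.49 and 0.49), for Gckr with the clock index (0.17) and the fasting index (0.42, or 0.52 with recovered reads), and for Fbp1 (0.17) and Ppargc1a (0.14) with recovered reads and the clock index. Slc16a1 turned with the replicate block (-0.39, again from Fabp4 shRNA animal 1 alone), the clock index (-0.15) and the fasting index (-0.050). With recovered reads and the fasting index Slc16a1 (-1.22), Slc2a8 (0.33) and Ppara (-0.066) turned. Leaving out 1 library gave -0.52 to 0.0083 for Pck1, -0.24 to 0.25 for Fbp1, -0.53 to 0.17 for Pcx, -0.37 to 0.15 for Gckr, -0.83 to 0.38 for Pklr and -0.29 to 0.93 for Pfkfb3.

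Clock slopes turned with both indices for Gckr (-0.0098) and Slc2a2 (-0.028), and ran from -0.089 to 0.064 for Pklr and -0.070 to 0.19 for Pfkfb3 with 1 library left out. Fasting slopes turned with recovered reads for G6pc (-0.12), Ppargc1a (-0.0048) and Pfkfb3 (-0.41), and with both indices for Pcx (-0.11). Leaving out 1 library gave -0.048 to 0.48 for G6pc, -0.064 to 0.20 for Ppargc1a, -0.44 to 0.49 for Pfkfb3 and -0.42 to 0.083 for Pklr. Of the clock slopes called, 85 were positive and 152 negative, against 147 and 115 with upper quartile scaling; of the fasting slopes, 52 and 83, against 10 and 9 with no scaling. The lowest count of a member was 54 reads in the count columns and 33 in the recovered reads (Pfkfb3 in both).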
